A study of Mus musculus with 2 samples.

Results

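Endothelial-like cells of mouse bone were examined, 155 of the 4976 cells in 2 single-cell RNA libraries. They comprised 96 of the 2488 cells of the vehicle library (Veh) and 59 of the 2488 cells of the doxorubicin library (Doxo). The cells were chosen by their deposited values for 18 genes. Each cell was given the mean of 6 sets of 3 genes, for Cxcl12-abundant reticular cells (CAR: Cxcl12, Adipoq, Lepr), bone and cartilage fibroblasts (BCF: Fmod, Cilp, Angptl7), arteriolar and endosteal fibroblasts (AEF: Clec3b, Col14a1, Mfap5), osteoblasts (OB: Ifitm5, Dmp1, Bglap2), chondrocytes (CH: Acan, Col9a1, Matn3) and endothelial cells (EC: Cdh5, Emcn, Kdr). A cell was kept when its EC mean was strictly the highest and at least 2 of Cdh5, Emcn and Kdr were above 0. The levels of these 18 genes are therefore given as a description only.

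Endothelial cells line every blood vessel and hold together through adherens and tight junctions, rest on a basement membrane of type IV collagen and laminin, and present adhesion molecules to leukocytes. In bone marrow, thin-walled and fenestrated sinusoids drain arterioles, and vessels near the growth plate and endosteum accompany bone formation. Marrow endothelium is also a source of secreted factors for blood-forming and bone-forming cells.

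The study asked how cells of bone respond to chemotherapy. It sampled femurs and tibias of 12-week-old female mice 96 h after vehicle or 10 mg/kg of doxorubicin, an anthracycline that intercalates into DNA and traps topoisomerase II. The labels name no strain for these libraries, and the methods name C57BL/6 mice for the study in general. Each condition gave 1 library (n = 1), and the number of mice behind it is not given in the study's text, so no test between the conditions was made. Bone fragments were digested with collagenase, depleted of CD45+ cells with magnetic beads and then sorted. The labels say that the sort removed CD45+, CD71+, Ter119+ and CD31+ cells, whereas the study's methods name the first 3 of these antigens. CD31 is the product of Pecam1, an endothelial surface protein, so the endothelial-like cells here are those that the sort left, and their share of a library is not read as a share of the tissue.

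In total, 24859695 molecules of RNA, each counted once by its unique molecular identifier (UMI), were read in Veh and 20792012 in Doxo. Over all cells, the median was 8693 UMIs and 2727 genes per cell in Veh and 7347.5 UMIs and 2339.5 genes in Doxo. The endothelial-like cells were shallower, with a median of 6474 UMIs and 2574.5 genes in Veh and 4678 UMIs and 2089 genes in Doxo. Summed over these cells, there were 663825 UMIs for Veh and 306668 for Doxo. Their median share of mitochondrial UMIs was 2.80% in Veh and 2.87% in Doxo. In all, 4 barcodes occurred in both libraries, and 0 of them belonged to an endothelial-like cell. Levels are given as CPM, the UMIs of a gene in all cells of a kind divided by all their UMIs and multiplied by 1000000. All intervals are exact 95% intervals that cover counting error only, and cells vary more than counting alone would give.

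Endothelial-like cells made up 3.86% of the Veh library, with an exact binomial interval of 3.14 to 4.69%, and 2.37% of the Doxo library, with 1.81 to 3.05%. All 3 of Cdh5, Emcn and Kdr were found in 87 Veh cells out of 96 and in 47 Doxo cells out of 59. The EC mean exceeded the next set by a median of 5.98 in Veh and 6.08 in Doxo, on the deposited log2 scale. Just inside the limit, 3 cells of each library had a lead under 1, between 0.13 and 0.43 in Veh and between 0.02 and 0.38 in Doxo, and the next smallest leads were 2.79 and 2.78. Just outside, 2 Veh and 3 Doxo cells had a leading EC mean with only 1 of the 3 genes, and 3 Veh and 4 Doxo cells had at least 2 of the genes but a higher mean of another set. In a clustering of all cells, every one of the 155 cells fell into a single endothelial cluster, which held 103 Veh and 69 Doxo cells.

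The label was checked against endothelial genes that the rule did not use. Pecam1 stood at 1264 CPM in the Veh endothelial-like cells and 991 CPM in the Doxo ones, against 14.8 and 7.37 CPM in all other cells. Cldn5, the claudin of endothelial tight junctions, stood at 1181 CPM in Veh and 1487 CPM in Doxo, against 2.15 and 2.78 CPM in other cells. Egfl7, a secreted endothelial matrix protein, stood at 905 CPM in Veh and 968 CPM in Doxo. Of 30 endothelial genes outside the rule, 26 were over 10-fold higher than in all other cells in both libraries, and all 30 were over 2-fold higher. The smallest ratio was 2.86, for the ETS factor gene Erg in Veh. The rule genes themselves, which the selection fixed, were at 1229 CPM in Veh and 1415 CPM in Doxo for Cdh5 (VE-cadherin), 1002 and 747 CPM for Emcn (endomucin), and 774 and 802 CPM for Kdr (VEGF receptor).

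**Figure D1:**
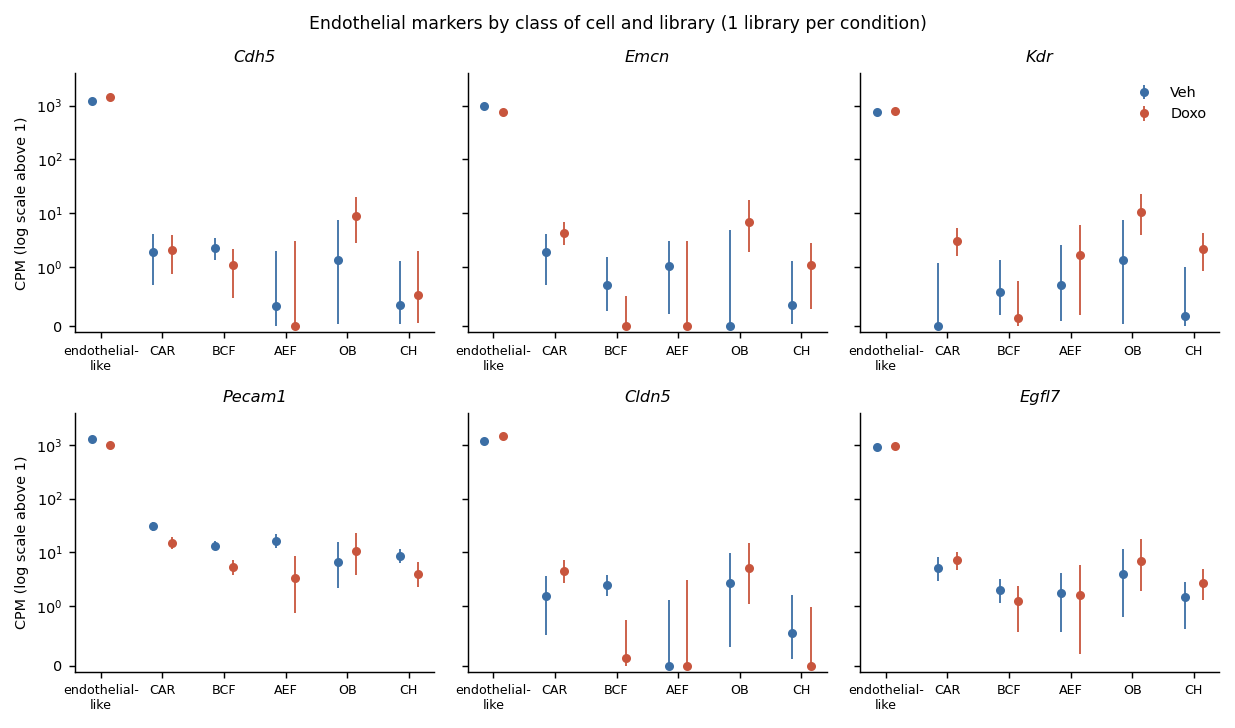
CPM of 6 endothelial genes (y axis, logarithmic above 1) in cells sorted into 6 classes by the same rule (x axis), for Veh and Doxo; bars are exact 95% Poisson intervals. Cdh5, Emcn and Kdr were used by the rule, whereas Pecam1, Cldn5 and Egfl7 were not and also stand between 905 and 1487 CPM in the endothelial-like cells.

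Markers of other cell types were found unevenly. Ptprc, which encodes CD45, Epcam, Krt8, Krt18 and Cdh1 of epithelium, and Acta2, Myh11, Notch3 and Des of mural cells had 0 UMIs in the endothelial-like cells of both libraries. Of 10 genes listed for pericytes and smooth muscle, 5 were found in each library, and most of their UMIs belonged to Abcc9 (157 UMIs in Veh, 84 in Doxo) and Kcnj8 (91 and 64), which encode subunits of a potassium channel. That list summed to 465 CPM in Veh and 535 CPM in Doxo, against 388 and 430 CPM in all other cells. Immune genes summed to 76.8 and 134 CPM, against 637 and 91.1 CPM. Osteoblast genes summed to 1077 and 505 CPM, against 9108 and 6511 CPM, and CAR genes to 571 and 1083 CPM, against 4208 and 7612 CPM. Their part in the results was not tested. Genes of haemoglobin summed to 200 CPM with the other erythroid genes in the Veh endothelial-like cells and to 9.78 CPM in the Doxo ones, and to 406 and 2.78 CPM in all other cells. Of 6 stromal matrix genes (Col1a1, Col1a2, Col3a1, Dcn, Lum and Pdgfra), a median of 0.046% of UMIs per cell in Veh and 0.087% in Doxo was found, against 2.95% and 2.30% over all other cells. This RNA sat in few cells, with 56.3% of it in 3 Veh cells and 72.4% in 3 Doxo cells. In 23 Veh and 6 Doxo cells, 2 or more genes of another set were above 0.

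The endothelial-like cells were not uniform. Stab2, a scavenger receptor of sinusoids that is not among the rule genes, marked 31 of the 96 cells from Veh (32.3%, 23.1 to 42.6%) and 26 of the 59 from Doxo (44.1%, 31.2 to 57.6%). Among all other cells it was found in 0.334% in Veh and 0.412% in Doxo, although these cells were deeper, with a median of 8910.5 and 7439 UMIs. With each endothelial-like cell thinned to 2000 UMIs, Stab2 marked 20 of 91 from Veh (21.98%, 13.97 to 31.9%) and 21 of 54 from Doxo (38.9%, 25.9 to 53.1%). The intervals of the libraries overlapped at both depths. Cells with Stab2 were also deeper than cells without it, with medians of 7933 and 5889 UMIs in Veh and 5478.5 and 4202 UMIs in Doxo.

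The split by Stab2 was chosen after the values were seen, and its leading genes were taken from Veh and read in Doxo. Among 4972 genes compared, each found in at least 15 Veh cells, the 12 with the highest ratio of Veh cells with Stab2 to Veh cells without it were Angptl4, Clca3a1, Lipg, Gm1673, Gpr182, Cyp4b1, Col6a3, Chst2, Mrc1, Vegfa, Gpm6a and Dnase1l3. In Doxo, 12 of these 12 were also higher in the cells with Stab2, where 50.4% of all compared genes were higher, and for 10 of them the interval lay wholly above 0. The orphan receptor gene Gpr182 stood at 201 CPM with Stab2 and 14.3 CPM without it in Veh, and at 321 and 20.3 CPM in Doxo. Mrc1, the mannose receptor, stood at 488 and 47.6 CPM in Veh and at 541 and 67.7 CPM in Doxo. Vegfa had the smallest ratio in Doxo, at 123 CPM with Stab2 and 11.9 CPM without it in Veh but 44.0 and 40.6 CPM in Doxo.

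Of the 12 lowest genes of that split (C1qtnf9, Pdlim4, Fam13c, Gm28875, Pcp4l1, Olfml2a, Mecom, Nuak1, S100a6, Lysmd2, Cdh13 and Slc41a1), 11 of 12 were again lower with Stab2 in Doxo, and 8 had an interval wholly below 0. S100a6, a calcium-binding protein gene, stood at 225 CPM with Stab2 and 2296 CPM without it in Veh, and at 384 and 2235 CPM in Doxo. Mecom, which encodes a transcription factor, stood at 8.20 and 117 CPM in Veh and at 6.29 and 102 CPM in Doxo. Olfml2a turned the other way in Doxo, at 50.3 and 40.6 CPM. With every cell thinned to 2000 UMIs, all 12 of the high genes and 11 of the low genes kept the Veh direction in Doxo. All 12 of each set also kept it in Veh. The genes had been chosen from those same Veh cells, so the Veh outcome was largely fixed in advance.

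**Figure D2:**
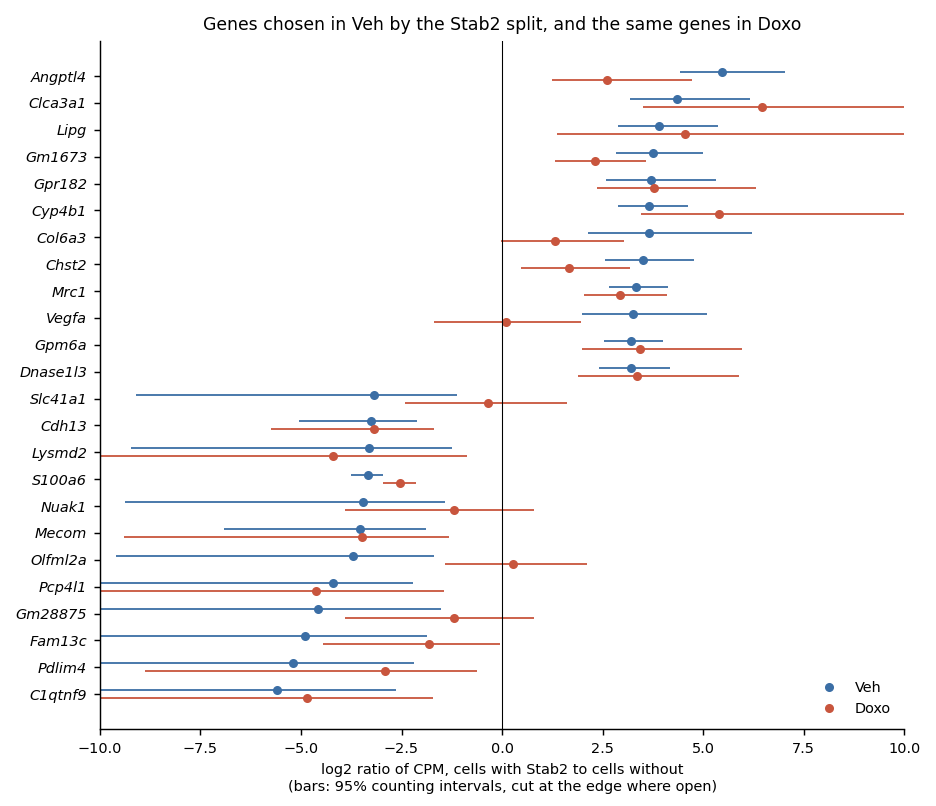
Log2 ratio of CPM in cells with Stab2 to cells without it (x axis) for the 12 highest and 12 lowest genes of the split in Veh, with the same genes in Doxo; bars are exact 95% intervals, running to the edge where open. Doxo points lie on the same side of 0 as Veh for 12 of the 12 high genes and 11 of the 12 low genes.

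Lists of vessel type were read across the same split. Besides Stab2 itself, 10 of 10 sinusoidal genes were higher with Stab2 in Veh and 9 of 10 in Doxo, where 50.4% of all compared genes were higher. The shares over all compared genes cover Doxo alone and genes found in at least 15 Veh cells. Some listed genes were found in fewer, such as Ubd in 13 Veh cells, Gja4 in 11 and Bmx in 4. No such share is given for Veh, so the Veh counts are a description only. The exception in Doxo was Sele, at 119 CPM with Stab2 and 163 CPM without it (-0.44, -1.39 to 0.49). Adamts5, a matrix protease gene, stood at 443 CPM with Stab2 and 59.5 CPM without it in Veh and at 1019 and 47.4 CPM in Doxo, and Tfpi, the inhibitor of tissue factor, at 1591 and 238 CPM in Veh and 1648 and 142 CPM in Doxo. Stab1, a relative of Stab2, stood at 471 and 202 CPM in Veh and 849 and 264 CPM in Doxo. All 13 arterial genes were lower with Stab2 in Veh, as were the 12 found in Doxo, where 49.6% of all compared genes were lower. Some of them rested on few UMIs, such as Bmx with 6 in Veh and 4 in Doxo. Unc5b was nearly level in Veh (-0.11, -1.41 to 1.03). Gja4, the connexin of arterial endothelium, had 0 UMIs in cells with Stab2 of either library and stood at 85.7 CPM in the Veh and 257 CPM in the Doxo cells without it. Ly6c1 stood at 418 CPM with Stab2 and 1253 CPM without it in Veh and at 503 and 2228 CPM in Doxo. Of 7 venous genes, 5 were higher with Stab2 in Veh and 5 in Doxo, with a median log2 ratio of 0.27 and 0.72. Vwf, which encodes von Willebrand factor, was 1 of the 2 lower venous genes in either library. It had 1 Veh cell and 0 Doxo cells with a UMI among those with Stab2, against 11 and 6 among those without it. Fabp4, a fatty acid binding protein gene, stood at 9163 and 1886 CPM in Veh and 8521 and 3285 CPM in Doxo. Of the rule genes, Kdr stood at 1119 CPM with Stab2 and 574 CPM without it in Veh (0.96, 0.71 to 1.22) and differed by 0.76 (0.38 to 1.16) in Doxo. Cdh5 gave 0.04 (-0.17 to 0.25) in Veh and 0.31 (0.03 to 0.59) in Doxo, and Emcn -0.04 (-0.28 to 0.19) and -0.09 (-0.48 to 0.29).

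**Figure D3:**
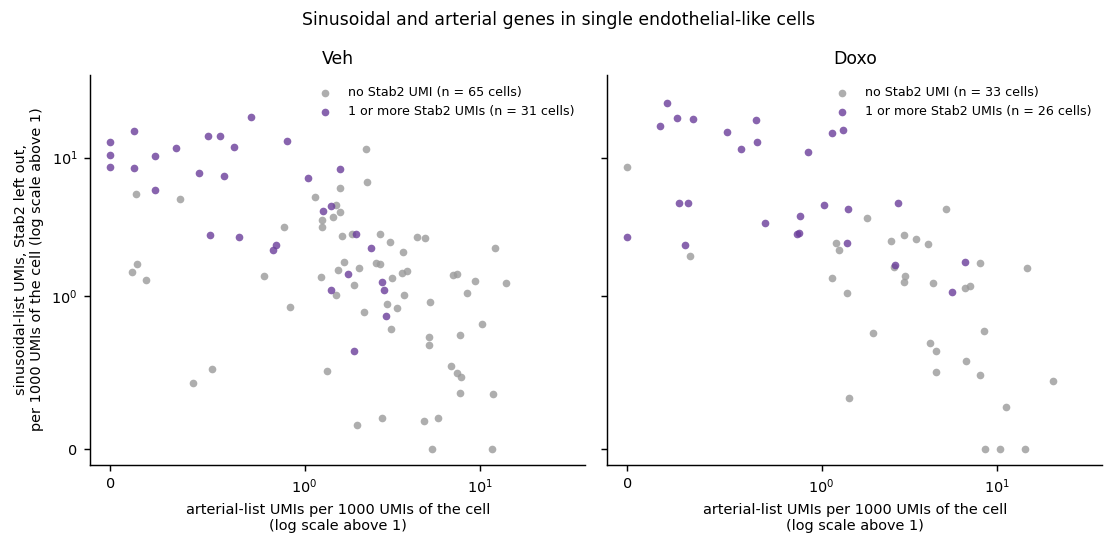
UMIs of 10 sinusoidal genes without Stab2 (y axis) and of 13 arterial genes (x axis) per 1000 UMIs of each endothelial-like cell, both axes logarithmic above 1; each point is 1 cell, with colour showing whether Stab2 was found. Cells with Stab2 lie mostly to the upper left and cells without it to the lower right in both libraries, with no gap between them.

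Lists of vessel type overlapped in single cells. At least 2 of 11 sinusoidal genes were found in 83 of 96 cells from Veh (86.5%) and 54 of 59 from Doxo (91.5%), and at least 2 of 13 arterial genes in 81 (84.4%) and 51 (86.4%). The same was true of 54.1% and 47.6% of all other Veh cells, since genes such as Il6st and Adamts5 are also found in stroma, so these shares mark no vessel type on their own. Venous genes, such as Nr2f2, which encodes the factor COUP-TFII, gave a wider gap, with at least 2 of 7 found in 76.0% of Veh and 78.0% of Doxo endothelial-like cells against 9.11% and 9.18% of other cells. Ackr1, the venular receptor that binds chemokines, was found in 20 Veh and 12 Doxo cells. Esm1, a gene of endothelial tip cells that stood at 216 and 259 CPM in all other cells, was found in 12 and 8, and Apln, the ligand of the apelin receptor, in 7 and 4. At least 2 of 6 lymphatic genes were found in 3 Veh cells and 1 Doxo cell, against 1.17% and 0.618% of other cells. Ccl21a, Reln and Lyve1 were each found in 1 Veh cell alone, with 12, 3 and 2 UMIs, and no Doxo cell held any of them.

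Doxo was then compared with Veh within the endothelial-like cells, to describe how these cells differed 96 h after the drug. Differences are log2 ratios, Doxo over Veh, of CPM, with 0.5 UMI added to each sum, and genes with at least 20 UMIs over both libraries were taken as measured. Of 6335 measured genes outside the rule, 278 (4.39%) were 2-fold or more higher in Doxo and 244 (3.85%) were 2-fold or more lower. Their median log2 ratio was 0.03, with quartiles of -0.29 and 0.38. A ratio above 0 was found for 52.6% of the genes and one below 0 for 47.4%. From these sums alone, fewer cells with a gene and less of its RNA per cell cannot be told apart. Counts of cells or values of single cells are therefore given for some genes.

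Genes of endothelial identity stayed within 2-fold. Of 30 measured, 0 were 2-fold higher and 0 were 2-fold lower, against 4.39% and 3.85% of all genes. The cells of both libraries were chosen by 3 endothelial genes, which favours level values of related genes, so this is a description only. The interval lay wholly above 0 for 3 of the 30 and wholly below 0 for 6. Of the same 30, 21 were above 0, against 52.6% of all genes, and 9 below it. Their median log2 ratio was 0.06. Plvap, the diaphragm protein of fenestrated endothelium, stood at 1663 CPM in Veh and 1748 CPM in Doxo, a log2 ratio of 0.07 (interval -0.08 to 0.22). Flt1, a VEGF receptor gene, stood at 1158 and 1180 CPM (0.03, -0.16 to 0.21). Pecam1 was lower, with a log2 ratio of -0.35 (-0.54 to -0.16), and Cldn5 was higher, with 0.33 (0.16 to 0.50). The highest ratio of the list was that of Gpihbp1, the capillary protein that anchors lipoprotein lipase, at 794 CPM in Veh and 1415 CPM in Doxo (0.83, 0.65 to 1.02), and the lowest was that of Nos3, endothelial nitric oxide synthase, at 70.8 and 35.9 CPM (-0.93, -2.08 to -0.01). In single cells, Pecam1 ran from 0 to 3162 CPM around a median of 1133 in Veh and from 0 to 3454 CPM around a median of 973 in Doxo, so the ranges of the libraries overlapped almost fully.

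Genes of the basement membrane were lower in Doxo as a list. Of 16 measured, 12 were below 0, where 47.4% of all genes were, and their median log2 ratio was -0.52 against 0.03 for all measured genes and -0.13 for the same list in all other cells. Only Lamb1, a laminin chain gene, was 2-fold lower, at 158 CPM in Veh and 55.4 CPM in Doxo (-1.48, -2.35 to -0.77). Col4a1, which encodes a chain of type IV collagen, stood at 2513 CPM in Veh and 1438 CPM in Doxo (-0.80, -0.96 to -0.65). Its partner Col4a2 stood at 1500 and 1037 CPM (-0.53, -0.72 to -0.35). In all other cells Col4a1 went from 184 to 208 CPM and Col4a2 from 121 to 127 CPM. Other lower members were Igfbp7, which encodes a vascular matrix protein (3667 and 2511 CPM, -0.55), Sparcl1 (818 and 483 CPM, -0.76), Col18a1 (164 and 84.8 CPM, -0.93) and the laminin chain genes Lama4 (-0.77) and Lamc1 (-0.70). Sparc was nearly level at 4643 and 4379 CPM (-0.08), as were Hspg2, which encodes perlecan (-0.04), and Nid1 (0.06).

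Type IV collagen was also read on either side of the Stab2 split, without a test of the difference between the sides. Among cells without Stab2, Col4a1 had 1260 UMIs in Veh and 215 in Doxo (-1.04, -1.26 to -0.83), whereas among cells with Stab2 it had 408 and 226 UMIs (-0.23, -0.48 to 0.00). Col4a2 gave -0.69 (-0.95 to -0.45) without Stab2 and -0.03 (-0.34 to 0.26) with it. In single cells, Col4a1 had a median of 1438 CPM in Veh and 1036 CPM in Doxo and a highest value of 11345 and 4537 CPM. Over the 12 alternatives tried, the log2 ratio of Col4a1 ran from -0.91 to -0.71 and that of Col4a2 from -0.62 to -0.24.

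Col4a1 and Col4a2 lie head to head on chromosome 8, on opposite strands, in the GENCODE M21 annotation of GRCm38 (Col4a1, ENSMUSG00000031502, bases 11198423 to 11312826, minus strand, and Col4a2, ENSMUSG00000031503, bases 11312805 to 11449287, plus strand). Their promoters are shown because both members were lower in Doxo and share 1 stretch of DNA. The windows run from 250 bases before to 50 bases after each start, 5′ to 3′ on the strand of the gene, taken from RefSeq on GRCm38.p6, chr8:11312777-11313076 for Col4a1 and chr8:11312555-11312854 for Col4a2. Capitals mark CCAAT and GGGCGG, the letters of a CCAAT box and a GC box, on either strand (ATTGG and CCGCCC when read in reverse).
Col4a1: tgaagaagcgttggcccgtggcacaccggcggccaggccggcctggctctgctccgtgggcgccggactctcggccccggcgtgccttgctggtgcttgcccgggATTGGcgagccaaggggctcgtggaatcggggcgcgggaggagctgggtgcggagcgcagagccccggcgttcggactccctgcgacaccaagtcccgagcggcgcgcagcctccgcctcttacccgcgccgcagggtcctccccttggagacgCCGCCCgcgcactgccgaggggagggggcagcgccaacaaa
Col4a2: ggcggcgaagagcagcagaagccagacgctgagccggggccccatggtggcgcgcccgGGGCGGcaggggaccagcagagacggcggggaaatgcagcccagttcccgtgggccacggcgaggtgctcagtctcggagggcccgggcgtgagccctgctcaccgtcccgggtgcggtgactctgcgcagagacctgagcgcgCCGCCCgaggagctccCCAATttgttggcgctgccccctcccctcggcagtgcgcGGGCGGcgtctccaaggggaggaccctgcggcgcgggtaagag
The starts lie 21 bases apart, and the windows share 78 bases. The window of Col4a1 holds 1 CCAAT and 1 GGGCGG, and that of Col4a2 holds 1 and 3. Of 32851 promoter windows of this length, 37.4% hold CCAAT and 35.7% hold GGGCGG on either strand, so both letters are common, and a match is a description of sequence only.

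Secreted inflammatory genes stood far apart between the libraries. Of 15 listed, 5 were measured, and 4 of these 5 were 2-fold lower in Doxo, where 3.85% of all genes were. The median log2 ratio of the 5 was -2.22, against -1.15 for the same genes in all other cells. Those 4 reached the minimum of UMIs only through Veh, so this count and median are a description only. Without that minimum, the 15 genes summed to 1342 CPM in Veh and 209 CPM in Doxo (-2.67, -3.07 to -2.32). Ccl2, a chemokine that recruits monocytes, had 418 UMIs from 15 cells of Veh and 3 from 3 cells of Doxo, which is 630 and 9.78 CPM (-5.79, -8.29 to -4.45). Cxcl1, a chemokine for neutrophils, stood at 339 CPM in Veh and 55.4 CPM in Doxo (-2.57, -3.42 to -1.90), and Cxcl2, another, at 154 and 32.6 CPM (-2.17, -3.34 to -1.30). Csf3, the gene of granulocyte colony-stimulating factor, stood at 67.8 and 13.04 CPM (-2.22, -4.31 to -0.92). Csf1, which drives macrophages and osteoclasts, was not 2-fold lower, at 88.9 and 71.7 CPM (-0.29, -1.09 to 0.42). Outside the endothelial-like cells, Ccl2 also stood lower in Doxo, at 445 CPM in Veh and 85.2 CPM in Doxo (-2.38).

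This RNA was concentrated in few Veh cells. The 3 Veh cells with most Ccl2 held 88.3% of its UMIs, 270 of them in 1 cell of 15625 UMIs. That cell also held 28 UMIs of Cxcl1, 7 of Csf3, 23 of Cdh5 and 23 of Emcn, and 0 of Ptprc. Of Ccl2, Cxcl1, Cxcl2, Csf3, Il6 and Ccl7, at least 3 were found together in 15 Veh cells and 1 Doxo cell, and none was found in 49 of 96 Veh and 48 of 59 Doxo cells. Of those 15 Veh cells, 8 had Stab2. The log2 ratio of Ccl2 ran from -6.30 to -4.65 over the 12 alternatives, that of Cxcl1 from -3.05 to -2.23, that of Cxcl2 from -6.18 to -1.10, and that of Csf3 from -3.45 to -0.83.

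Adhesion molecules for leukocytes were level as a list, with a median log2 ratio of 0.01 over 11 measured genes. Sele, the endothelial selectin, was the one 2-fold lower, at 283 CPM in Veh and 140 CPM in Doxo (-1.001, -1.53 to -0.53), with a range of -1.89 to -0.30 over the alternatives. It was found in 32 Veh and 12 Doxo cells. Selp, the selectin stored with von Willebrand factor, stood at 300 CPM in Veh and 205 CPM in Doxo (-0.54, -0.98 to -0.13), and at 0.09 on the log2 scale without the cells with 2 or more genes of another set. Vcam1, a ligand for leukocyte integrins, stood higher in Doxo, at 280 and 437 CPM (0.64, 0.31 to 0.97), and Icam1 at 514 and 616 CPM (0.26, -0.00 to 0.52). In all other cells Vcam1 also stood higher, at 241 and 386 CPM.

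**Figure D4:**
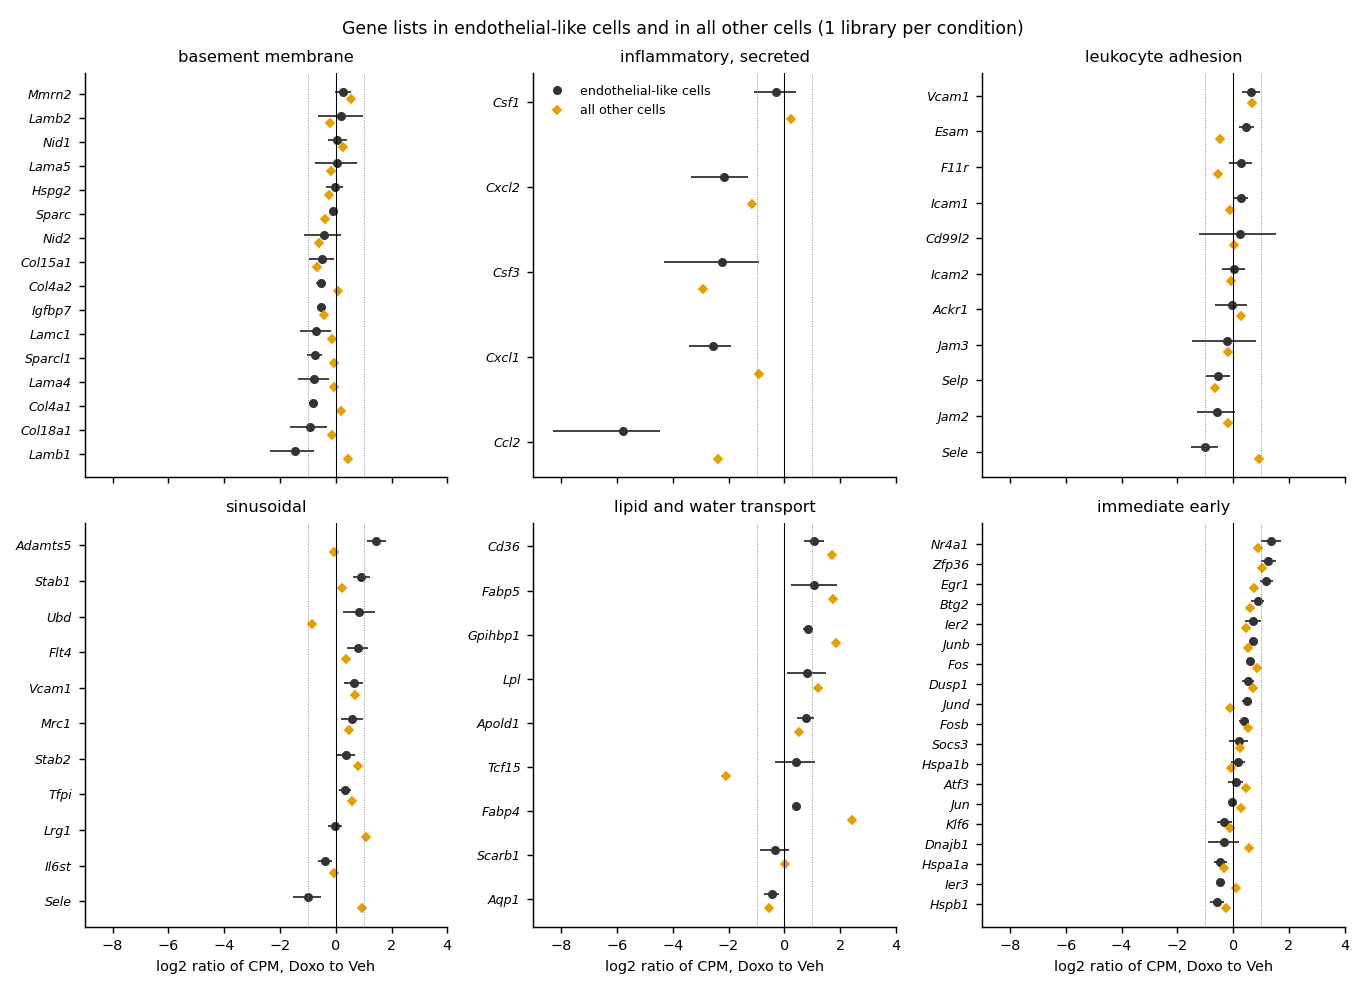
Log2 ratio of Doxo to Veh CPM (x axis) for the measured genes of 6 lists, in the endothelial-like cells (black, with exact 95% intervals) and in all other cells (orange); dotted lines mark 2-fold. Secreted inflammatory genes reach -5.79 for Ccl2, most basement membrane genes lie left of 0, and Adamts5 reaches 1.46.

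Sinusoidal genes stood mostly higher in Doxo, 8 of 11 above 0 against 52.6% of all genes, with a median log2 ratio of 0.58 against 0.49 for the same genes in all other cells. Adamts5 was 2-fold higher, at 200 CPM in Veh and 551 CPM in Doxo (1.46, 1.12 to 1.80), and Sele, which is also in this list, was 2-fold lower. Stab1 stood at 301 and 567 CPM (0.91, 0.61 to 1.21), Tfpi at 735 and 923 CPM (0.33, 0.11 to 0.54) and Lrg1, a secreted glycoprotein gene, at 713 and 701 CPM (-0.02). Il6st, which encodes the shared signalling receptor gp130, stood lower, at 732 and 558 CPM (-0.39). The share of cells with Stab2 moved in the same direction as the list, as given above, and its part in these ratios was not tested. The log2 ratio of Stab1 was 0.85 (0.48 to 1.22) in the cells with Stab2 and 0.39 (-0.20 to 0.95) in those without it.

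Over 11 measured arterial genes the log2 ratios centred on 0.34, but on -0.06 with all 3 of Cdh5, Emcn and Kdr required and on -0.27 when the rule was applied to CPM per cell. Gja4 was 2-fold higher, at 54.2 CPM in Veh and 124 CPM in Doxo (1.19), but it rested on 11 Veh and 6 Doxo cells, and it turned to -0.83 when the rule was applied to CPM per cell. Stmn2, which encodes a microtubule regulator, had 40 UMIs, from 13 cells, in Veh and none in Doxo, which is at least 6.16-fold lower, taking 3 UMIs over the Doxo cells as the limit of detection. With all cells of the endothelial cluster in place of the rule, its log2 ratio was -0.96, under 2-fold. Ly6c1 stood at 946 and 1334 CPM (0.50, 0.31 to 0.68), and Ly6a, which encodes the surface protein Sca-1, at 883 and 939 CPM (0.09).

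Genes of lipid and water transport stood higher in 7 of 9 cases, against 52.6% of all genes, with a median log2 ratio of 0.76 against 1.21 in all other cells. Cd36, a fatty acid receptor gene, stood at 200 CPM in Veh and 421 CPM in Doxo (1.07, 0.71 to 1.43), and Fabp5 at 42.2 and 88.0 CPM (1.06). Fabp4 was the most abundant, at 4560 and 6000 CPM (0.40, 0.31 to 0.48). On either side of the Stab2 split, the Fabp4 ratio was -0.10 (-0.20 to -0.01) with Stab2 and 0.80 (0.63 to 0.97) without it. Aqp1, the water channel, stood lower, at 722 and 525 CPM (-0.46, -0.73 to -0.20). Fabp4 in all other cells stood at 38.4 CPM in Veh and 207 CPM in Doxo.

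Among transcription factor genes of endothelium, 16 of 20 were above 0, where 52.6% of all genes were, with a median log2 ratio of 0.27. Klf2 and Klf4, which respond to laminar flow, stood at 468 and 929 CPM (0.99, 0.75 to 1.22) and at 844 and 1559 CPM (0.89, 0.71 to 1.06). Both also stood higher in all other Doxo cells, from 350 to 845 CPM and from 988 to 1618 CPM. Within the endothelial-like cells, Klf2 differed by 0.09 (-0.34 to 0.51) with Stab2 and by 1.58 (1.29 to 1.87) without it. Hhex was 2-fold higher at 48.2 and 97.8 CPM (1.02), Nr2f2 of veins stood at 136 and 258 CPM (0.93, 0.47 to 1.38), and Ets1 stood lower at 869 and 695 CPM (-0.32).

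Immediate early genes, which cell dissociation also induces, centred on 0.38 for 19 genes, and on 0.45 in all other cells. Of the 19, 3 were 2-fold higher, against 4.39% of all genes. These were Nr4a1 at 187 and 483 CPM (1.37), Zfp36 at 359 and 861 CPM (1.26) and Egr1 at 461 and 1053 CPM (1.19). Fos stood at 1984 and 3026 CPM (0.61). All other cells differed in the same direction, with Egr1 at 1255 and 2081 CPM and Fos at 2688 and 4893 CPM. Vim, the intermediate filament gene vimentin, was listed with genes of the change from endothelium to mesenchyme and was 2-fold lower, at 4491 CPM in Veh and 1738 CPM in Doxo (-1.37, -1.51 to -1.24). In all other cells it stood at 2467 and 2085 CPM. Single Veh cells reached 25095 CPM of Vim around a median of 917 CPM, and Doxo cells 16927 CPM around a median of 520 CPM. Vim was lower both with Stab2 (-1.24) and without it (-1.04). Of the 8 measured genes of that list 4 were above 0, against 52.6% of all genes, with a median log2 ratio of -0.30. Snai2 was at 0.56 and Snai1, another transcription factor gene, at -0.86.

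Receptors and ligands of vessel growth ran in both directions. The 13 measured genes of VEGF, angiopoietin and apelin signalling had a median log2 ratio of 0.25. Of these, 0 were 2-fold higher and 0 were 2-fold lower, against 4.39% and 3.85% of all genes. Nrp1, a co-receptor of VEGF, stood at 642 CPM in Veh and 558 CPM in Doxo (-0.20), and the receptor gene Tie1 at 316 and 385 CPM (0.29). Flt4, the receptor of VEGF-C, stood at 205 and 352 CPM (0.78, 0.40 to 1.16), Nrp2, another co-receptor, at 377 and 489 CPM (0.38, 0.08 to 0.67), and the ligand gene Vegfc at 66.3 and 32.6 CPM (-0.97, -2.18 to -0.01). Notch genes had a median of 0.04, with Notch1 at 229 and 238 CPM (0.06) and the target gene Hes1 at 399 and 747 CPM (0.90, 0.64 to 1.16). Hes1 stood higher in all other cells as well, at 219 and 310 CPM. Genes of BMP and TGF-beta signalling had a median of -0.04, with the inhibitor Smad7 at 455 and 293 CPM (-0.63, -0.99 to -0.29) and the target Id1 at 511 and 757 CPM (0.57, 0.32 to 0.81). Of 10 measured genes of secreted niche factors, 3 were above 0, against 52.6% of all genes, and 7 were below it. Their median log2 ratio was -0.26, against 0.10 in all other cells. Among the 3 higher, Kitl, the stem cell factor gene, stood at 247 and 300 CPM (0.28, -0.10 to 0.66), and Pdgfb, which recruits mural cells, at 149 and 228 CPM (0.62, 0.15 to 1.07). Among the 7 lower, Edn1, the endothelin gene, stood at 64.8 and 39.1 CPM (-0.68, -1.79 to 0.22), and Tgfb1 at 351 and 310 CPM (-0.18, -0.54 to 0.17). Kcne3, a potassium channel subunit listed with tip cell genes, was 2-fold higher, at 21.1 and 114 CPM (2.41, 1.51 to 3.44), from 6 Veh and 9 Doxo cells. In each library 3 cells held 78.6% and 57.1% of its UMIs. The list as a whole went the other way, with 7 of 11 measured genes below 0, against 47.4% of all genes. Among the 7, Col4a1, Col4a2 and Nid2 are also in the basement membrane list given above. The median log2 ratio of the tip cell list was -0.52, against -0.23 for the same genes in all other cells. Over the alternatives that median ran from -0.77 to -0.06.

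Targets of p53, the factor that DNA damage activates, were close to level. Of 15 measured, 0 were 2-fold higher and 1 was 2-fold lower, against 4.39% and 3.85% of all genes. Their median log2 ratio was 0.13, against 0.03 for all measured genes. Cdkn1a, which encodes the cell cycle inhibitor p21, stood at 746 CPM in Veh and 864 CPM in Doxo (0.21, -0.01 to 0.43), and Bax at 152 and 183 CPM (0.27, -0.23 to 0.75). Btg2 stood higher, at 490 and 903 CPM (0.88), and Plk2 lower, at 506 and 326 CPM (-0.63). Ccng1, the one 2-fold lower, had 20 UMIs in Veh and 2 in Doxo (-1.92, -5.35 to -0.17). Few cells held RNA of mitosis, with 8 UMIs of Mki67 and 9 of Top2a, the target of doxorubicin in dividing cells, in Veh and 0 of each in Doxo. Taking 3 UMIs over the Doxo cells as the limit of detection, this is at least 1.23-fold lower for Mki67 and 1.39-fold for Top2a. Over the 17 listed genes of mitosis, the endothelial-like cells held 49 UMIs in Veh and 4 in Doxo, and no gene reached 20 UMIs. That is 73.8 and 13.04 CPM, while all other cells were at 68.2 and 65.0 CPM. Genes of S phase, when DNA is copied, did not fall with them. Of 18 listed, 6 were measured and 5 were above 0, with a median log2 ratio of 0.46. The list summed to 437 CPM in Veh and 528 CPM in Doxo (0.28, -0.01 to 0.56). A lower level of division in Doxo was therefore not shown. Top2b, the counterpart of Top2a in resting cells, stood at 163 and 117 CPM (-0.46, -1.06 to 0.09). The efflux pump genes Abcb1a and Abcg2, which export anthracyclines or other drugs, stood at 60.3 and 52.2 CPM (-0.18) and at 265 and 287 CPM (0.12).

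The median log2 ratio of 31 measured interferon-response genes was 0.36, against 0.53 in all other cells. Of these, 21 were above 0, 3 were 2-fold higher and 4 were 2-fold lower, against 52.6%, 4.39% and 3.85% of all genes. Rsad2 stood at 121 CPM in Veh and 277 CPM in Doxo (1.20, 0.74 to 1.66), Irf7 at 36.2 and 78.3 CPM (1.11) and Rtp4 at 30.1 and 71.7 CPM (1.25). Gbp3 stood at 36.2 and 9.78 CPM (-1.69, -4.26 to -0.17) and Ifi44 at 54.2 and 22.8 CPM (-1.17), from 27 and 43 UMIs in all. Genes of MHC class I presentation had a median of 0.05 over 16 genes, with H2-K1 at 1363 and 1617 CPM (0.25) and B2m at 2079 and 2462 CPM (0.24).

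The genes with the most extreme ratios were mostly sparse. Among genes found in at least 10 cells of the library where they were higher, and at least as abundant there as in all other cells, the 12 with the highest ratio in Doxo were Iqcn, Cmc2, Laptm4b, Slc35a2, Ccdc152, Plekhj1, Foxj2, Dalrd3, Mepce, Srm, Rai1 and St6gal1. They had between 20 and 72 UMIs over both libraries, and log2 ratios from 1.63 to 2.38. Iqcn led, with 8 UMIs in Veh and 20 in Doxo (2.38, 1.19 to 3.83). Mepce, which encodes a methyltransferase that caps the 7SK RNA, was the best covered of the 12, at 43.7 and 140 CPM (1.67, 0.97 to 2.41), and ran from 0.59 to 1.78 over the alternatives. The 12 with the lowest ratio were Ccl2, Stmn2, Arl4c, Morc4, Hacd4, Neurl3, Sgpl1, Cep250, Csf3, Ttc9, Cxcl2 and Serpinb6b. Neurl3, which encodes a ubiquitin ligase, stood at 200 CPM in Veh and 35.9 CPM in Doxo (-2.42, -3.52 to -1.60) and was found in 31 Veh and 7 Doxo cells. Its level in all other cells was 2.65 and 1.22 CPM. Over 12 alternatives its log2 ratio ran from -2.60 to -2.26. Neurl3 was lower on both sides of the Stab2 split, at -1.98 (-3.46 to -0.91) with Stab2 and -2.79 (-4.86 to -1.54) without it. Both sides divide the same UMIs that placed Neurl3 among the 12 lowest, so they lend no separate support.

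Some large ratios rested on cells that also held stromal RNA. Dcn, the matrix gene decorin, stood at 196 CPM in Veh and 1702 CPM in Doxo (3.12), with 91.6% of its Doxo UMIs in 3 cells, and Fn1, fibronectin, at 104 and 668 CPM (2.68), with 93.7% in 3 cells. Without cells over 2 times the median UMIs, the log2 ratios became -0.23 for Dcn and -0.34 for Fn1. Bglap2, an osteocalcin gene of the rule, stood at 244 and 117 CPM (-1.04) but at 1.02 without the cell with most of its UMIs in each library. Cxcl12, a rule gene that arterial endothelium also makes, stood at 407 and 893 CPM (1.14), found in 51 Veh and 31 Doxo cells, and at -0.32 when the rule was applied to CPM per cell.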

How the data were processed

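Droplet 3′ single-cell RNA libraries of sorted bone cells, 1 of Veh and 1 of Doxo, were analysed. The submitters' processing notes name Cell Ranger, Partek and the build GRCm38 (mm10), with versions of the tools not given in the sources used here. The authors kept genes found in at least 3 cells and cells with 200 to 10000 genes, 100 to 100000 counts and at most 10% mitochondrial RNA. The deposited matrix holds log2 values, which had passed through 2 rounds of scaling to a sum of 1000000 in each cell. Both rounds were inverted, which gave whole UMIs for 99.9% of nonzero values up to 50 UMIs (tolerance 0.05), and returned 100% of the UMIs in 40 simulated cells. In all, 20 symbols had values that were not whole.

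Cells were chosen by the rule given, and the members, lists and markers were chosen with earlier results of these data known. All cells were also clustered in Seurat 5.3.0 (R 4.3.3) with 35 components at a resolution of 0.1. Doublets were kept. UMIs were summed over cells per library. Sums have exact Poisson intervals, shares exact binomial and ratios exact conditional binomial intervals at 95%, and the ratio was tested on simulated data. With 1 library per condition there is no test. A gene was called past 2-fold at a log2 ratio of 1 or more either way, among genes with at least 20 UMIs.

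Genes named were the 12 highest and 12 lowest ratios among genes in at least 10 cells of the library where they were higher and at least as abundant there as in other cells, and from each of 44 lists the 4 with most UMIs and those past 2-fold. Other genes were chosen after their values were seen. Alternatives changed the cells chosen, depth, weighting, scaling, minimum UMIs and pseudocount. The other steps used scipy 1.17.1, numpy 2.4.6, pandas 2.3.3 and matplotlib 3.10.9 in Python 3.11.15. Places of genes come from GENCODE M21 (possibly not the authors' release) and promoters from RefSeq.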

Additional observations from a re-analysis of the deposited data

How the results depend on the processing

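With 1 library per condition, no library could be left out, and intervals cover counting error only. No paired analysis was possible because each condition has 1 library. The 278 genes 2-fold higher became 600 with at least 10 UMIs, 74 with at least 50 UMIs and 122 with each cell thinned to 2000 UMIs, and the 244 lower became 488, 70 and 127. Thinned cells with at least 2 sinusoidal genes made up 71.4% in Veh and 77.8% in Doxo, and with at least 2 arterial genes 64.8% and 61.1%. Without the cells with 2 or more genes of another set, the Veh share of endothelial-like cells was 2.93%. Of the values of named genes under the alternatives, 2025 of 2232 stayed within the interval, 196 moved beyond it and 11 were of genes past 2-fold that turned in sign. These were Bglap2 (1.06 in all cells of the endothelial cluster, 0.083 with every cell weighing the same, 0.43 with the rule on CPM, 1.54 without cells with genes of another set, 1.02 without the top cell of each library), Cxcl12 (-0.32) and Gja4 (-0.83) with the rule on CPM, Dcn (-0.23) and Fn1 (-0.34) without cells over 2 times the median UMIs, and Fn1 (-0.13) and Mt2 (-0.28) without cells with genes of another set. A further 108 values, of 41 genes under 2-fold, had the opposite sign, among them Pgk1 (0.10 thinned), Selp (0.09 without cells with genes of another set) and S100a4 (-0.67 with the rule on CPM). Of the list medians, 45 of 525 values had the opposite sign, 5 of them of lists past 2-fold. The median of the osteoblast list turned to 0.69, 0.43 and 1.12 in all cells of the cluster, with the rule on CPM and without cells with genes of another set, and that of the stromal list to -0.029 without cells with a lead under 1 and -0.23 without cells over 2 times the median UMIs. Among lists under 2-fold, the arterial median turned to -0.27 and the CAR median to -0.21 with the rule on CPM, the MHC class II median to 1.12 thinned, and the endothelial to mesenchymal median to 0.08 in all cells of the cluster. The use of all cells of the cluster and the removal of cells with a lead under 1 were chosen after seeing the data. The cause of these moves was not tested, other than that these minimums and thinning change how many genes are measured.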

Other observations

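Oxygen-related and metabolic genes had not been described above. Of 8 measured genes of hypoxia and glycolysis, 7 were below 0, where 47.4% of all genes were, with a median log2 ratio of -0.33, and Pgk1, a glycolytic enzyme gene, stood at 114 CPM in Veh and 58.7 CPM in Doxo (-0.93, -1.79 to -0.21), while all other cells were at 94.1 and 102 CPM. With each cell thinned to 2000 UMIs, the Pgk1 ratio was 0.10. Of 15 measured genes of antioxidant defence and metal handling, 9 were above 0, against 52.6% of all genes. Of these 15, 3 were 2-fold higher and 1 was 2-fold lower, against 4.39% and 3.85% of all genes. Their median log2 ratio was 0.14. The lower one was Txnrd1, thioredoxin reductase, at 167 and 75 CPM (-1.13, -1.87 to -0.50). It stood at 131 and 72.8 CPM in all other cells. Mitochondrial transcripts were mostly level, with mt-Co1 at 5482 and 4885 CPM (-0.17), except for mt-Nd3 at 407 and 838 CPM (1.04, 0.79 to 1.29), which stood at 390 and 870 CPM in all other cells.

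Among genes that answer to glucocorticoids, Cebpd stood at 125 CPM in Veh and 300 CPM in Doxo (1.26, 0.82 to 1.71), and Nfkbia, the inhibitor of NF-kappaB, at 1698 and 1060 CPM (-0.68, -0.86 to -0.50). Of the clotting genes, Thbs1, which encodes thrombospondin, was 2-fold higher, at 43.7 and 94.6 CPM (1.11). Ednrb, the endothelin receptor gene, stood at 157 and 215 CPM (0.46), against 0.124 and 0.391 CPM in all other cells.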
